A study of Rattus norvegicus with 8 samples.

Results

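Mitochondrial ribosomal protein genes were followed in rat kidney after the antibiotic colistin. Every array probe whose RefSeq accession matched a rat symbol beginning Mrpl or Mrps and a digit was taken, which gave 78 probes for 67 genes out of 12411 genes tested. By symbol, 42 of the 67 belong to the large subunit and 25 to the small subunit. All 67 passed the filter on dim probes, each by being well above background on at least 3 of the 4 arrays in both groups, and 58 were so on all 8 arrays. Genes such as Mrpl28, Mrpl33, Mrps6 and Mrps10 were not analysed here.

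The mitochondrial ribosome makes the few proteins that mitochondrial DNA encodes, which are core subunits of the respiratory chain and of ATP synthase. Its RNAs come from mitochondrial DNA, but all of its proteins are encoded in the nucleus, made in the cytosol and imported. Some descend from bacterial ribosomal proteins and others have no bacterial counterpart. Tubule cells of the kidney cortex and thick ascending limb are rich in mitochondria, since salt and solute reabsorption there runs on respiration.

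The saline group was 4 kidney samples from male rats labelled as 10 weeks of age that had saline and were sampled at day 28. The colistin group was 4 such samples from rats of the same sex and age at day 28 with colistin at 30 mg/kg. The series title speaks of injured tubules, whereas the sample labels name kidney and do not say whether tubules were isolated. The labels give no strain, and nothing in them ties each sample to its own animal. The p-values therefore reflect only how these samples vary, and some of that variation may be technical. In whole tissue, fewer cells of a type and less RNA per cell cannot be told apart.

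The saline arrays were dimmer than the colistin arrays. The 75th percentile of their processed signal was 156 to 197, against 271 to 317 on colistin arrays, and 69.3% to 75.8% of their spots were well above background, against 79.1% to 83.9%. All 10 proximal tubule markers were well above background on all 8 arrays. Of these 2 had a positive log2 fold change and 2 were called lower, with a median of -0.77. The log2 of their summed signal was 9.82 to 10.6 on saline arrays and 8.62 to 9.49 on colistin arrays. Markers of the thick ascending limb had a median of -1.60 over 6 genes with 0 positive, and endothelial markers of -2.86 over 6 genes with 0 positive. Summed in the same way, the thick ascending limb markers gave 4.93 to 5.99 and 1.05 to 3.15, and the endothelial markers 5.06 to 5.73 and 2.27 to 2.93. Of 7 tubular injury markers 5 were positive and 2 were called higher, and their sums were 2.51 to 3.14 and 4.80 to 5.88. Against these, 4 hepatocyte markers had a median of 3.30 with 4 positive, and 1 of them was well above background on all 8 arrays. Their sums were -2.98 to 0.38 on saline arrays and -1.55 to 5.12 on colistin arrays. The part of tissue makeup and of array brightness in the results below was not tested.

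No mitochondrial ribosomal protein gene passed the test between the groups. With limma on log2 signal and Benjamini-Hochberg adjustment over all genes, 0 of 67 were higher and 0 lower at an adjusted p of 0.05, where 2.00% of all genes tested were called, 1.46% higher and 0.540% lower. The lowest adjusted p among the 67 was 0.0995. At an unadjusted p of 0.05, 9 of the 67 passed, 7 higher and 2 lower, where 22.7% of all genes did, 10.5% higher and 12.2% lower. With normexp background correction, 3 of the 67 were called higher and 2 lower, where 27.3% of all genes were called, 5.51% higher and 21.8% lower. With a variance that follows signal, 0 were called higher and 2 lower, where 2.97% of all genes were called, 1.79% higher and 1.18% lower.

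The estimates were wide. The 95% interval of a member's log2 fold change reached a median of 1.30 to either side, from 0.61 for the narrowest to 3.8 for the widest. Mrpl14 and Mrpl34 were the only members, of the 67 fitted in this way, whose whole interval lay within a 2-fold change in either direction. Mrpl14 had an interval of -0.98 to 0.85, and Mrpl34 of -0.83 to 0.99. For the other members a 2-fold difference was not excluded at this number of arrays.

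As a list, 39 of the 67 had a positive log2 fold change and 28 a negative one, with a median of 0.19. Over all genes tested 45.1% were positive and the median was -0.14. Of the members, 22.4% differed by more than 2-fold in either direction, against 34.0% of all genes. The middle 50% of members lay between -0.21 and 0.79, and of all genes between -0.70 and 0.74.

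**Figure D1:**
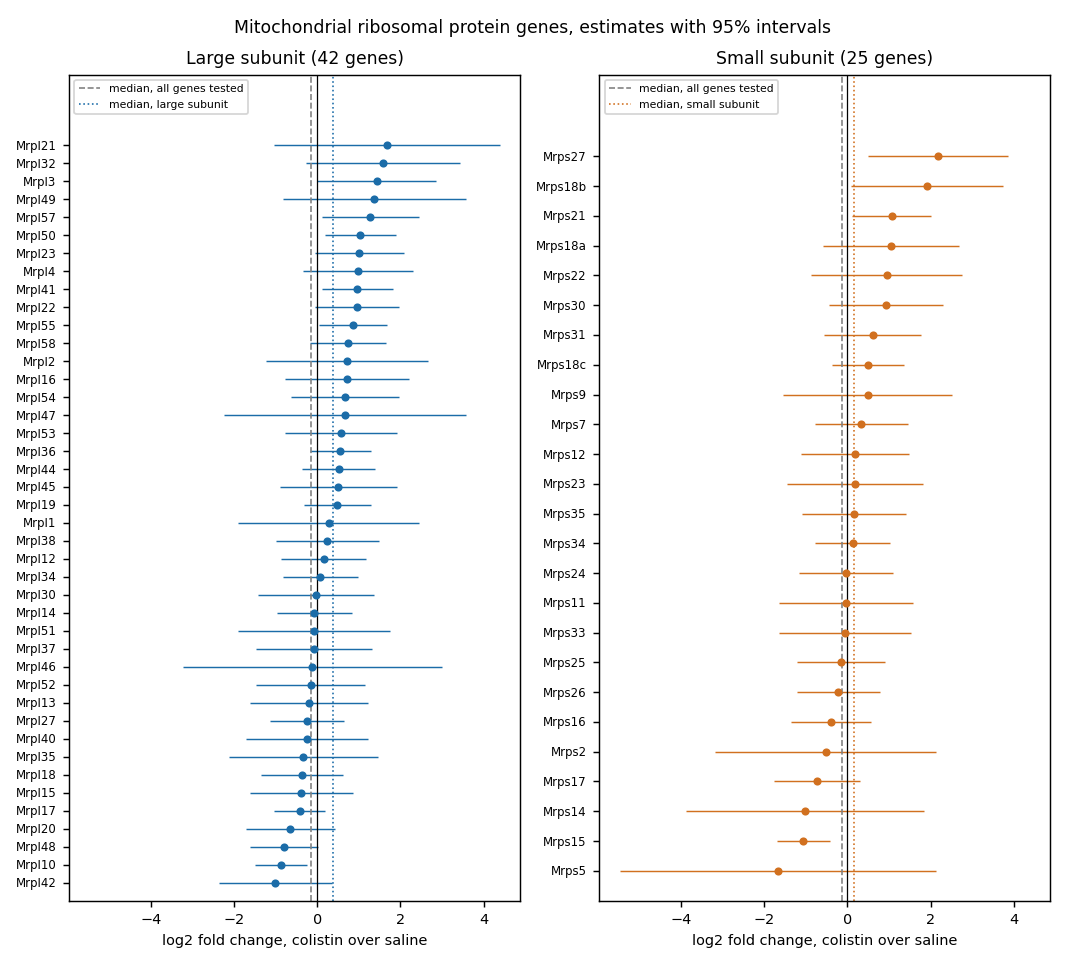
Log2 fold change of colistin over saline for each of the 42 large subunit and 25 small subunit genes (points) with 95% intervals from limma (bars). Dashed lines mark the median of all genes tested (-0.14), and dotted lines the medians of the large (0.38) and small (0.16) subunit genes. Most intervals cross 0, with 9 exceptions.

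The saline and colistin values of 11 members did not overlap, 16.4% of the 67, where 18.6% of all genes tested had groups that did not overlap. Of these, 8 were higher after colistin, against 6.89% of all genes, and 3 were lower, against 11.7%. An exact two-sided permutation of the 8 arrays gave p = 0.0286 for each of the 11, the smallest that 4 against 4 can give. Groups that do not overlap must give this value, so it repeats the choice of the 11 and adds no evidence. None of the 11 passed the limma test.

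The stretches just before the transcription start are shown for 6 of these 11, the 3 lower members and 3 of the higher ones, because nuclear genes for mitochondrial proteins are known to be under the factors NRF1, ETS family members such as GABP, and YY1. They are RefSeq sequences of the assembly GRCr8, matched by symbol, each 100 bases that end at the base before the start, and read on the gene's strand. The array was designed on an older build, so these positions belong to GRCr8 alone. Capitals mark CGCATGCG (NRF1 core), CCGGAAG (ETS core) and AAGATGGC (YY1 core), searched on both strands.
Mrps15, chr5:143606041-143606140, plus strand: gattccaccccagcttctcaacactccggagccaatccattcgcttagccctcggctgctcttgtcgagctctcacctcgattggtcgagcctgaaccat
Mrpl10, chr10:82522370-82522469, plus strand: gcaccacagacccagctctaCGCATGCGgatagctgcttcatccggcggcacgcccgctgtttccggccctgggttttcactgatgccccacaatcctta
Mrpl17, chr1:169575700-169575799, minus strand: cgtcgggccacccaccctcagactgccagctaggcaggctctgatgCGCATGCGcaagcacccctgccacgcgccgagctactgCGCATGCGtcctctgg
Mrps27, chr2:32474104-32474203, plus strand: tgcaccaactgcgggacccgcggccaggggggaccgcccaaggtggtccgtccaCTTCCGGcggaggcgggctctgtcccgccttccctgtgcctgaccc
Mrps18b, chr20:2842906-2843005, plus strand: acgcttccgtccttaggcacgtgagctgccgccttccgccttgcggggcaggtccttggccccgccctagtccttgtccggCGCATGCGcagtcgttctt
Mrpl36, chr1:31795122-31795221, minus strand: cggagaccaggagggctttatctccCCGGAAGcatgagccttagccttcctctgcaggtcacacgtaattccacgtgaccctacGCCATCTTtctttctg

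The NRF1 core began 80 bases before the start of Mrpl10, 54 and 16 bases before that of Mrpl17 and 19 bases before that of Mrps18b. Of these 3 genes Mrpl10 and Mrpl17 lay lower and Mrps18b higher after colistin. The stretch shown for Mrps15 held none of the 3 cores. The 3 higher members shown were picked by no stated rule, and each of their stretches held a core. They do not show how common the cores are among the 8 higher members. Over whole windows of 300 bases, from 250 before to 50 after the start, 55 of the 67 members had a window, and 2 of these had 2 windows. The NRF1 core was in 6 of the 57 member windows (10.5%) and in 1.66% of all 33469 windows. That wider set, used for each share below, was not limited to the genes tested on the arrays. The ETS core was in 33.3% against 8.75%, and the YY1 core in 22.8% against 3.17%. The GC box GGGCGG was in 50.9% against 33.1%, and the box TATAAA in 14.0% against 14.2%. The ETS and YY1 shares were close in both subunits, at 33.3% and 22.2% of 36 large subunit windows and 33.3% and 23.8% of 21 small subunit windows. The NRF1 core was in 5 large and 1 small subunit windows, 13.9% and 4.76%, and TATAAA in 4 of each, 11.1% and 19%. The GC box was in 18 and 11. The 19 members with an ETS core had a median log2 fold change of 0.61, and the 36 with a window but no such core 0.02. The 13 members with a YY1 core had a median of 0.93, against 0.12 for the 42 without it. For the NRF1 core the medians were 0.74 over 6 members and 0.18 over 49, for the GC box 0.33 over 29 and 0.13 over 26, and for TATAAA 0.24 over 8 and 0.27 over 47. These matches are descriptions of the letters, and the differences between medians were not tested.

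Among the members that lay lower, Mrps15, the counterpart of a bacterial protein that binds the RNA of the small subunit, came nearest to the threshold. Its log2 signal relative to the array's 75th percentile was 5.95, 5.67, 5.48 and 6.08 on saline arrays 1 to 4 and 4.49, 4.74, 4.80 and 4.91 on colistin arrays 1 to 4. All 4 colistin arrays were below the lowest saline array. Colistin minus saline was -1.06 ± 0.28 (SE, n = 4 per group; adjusted p = 0.0995). The adjusted p was 0.0212 with normexp and 0.0233 with a variance that follows signal, and 0.218 with slide as a block. Within slides 1, 2 and 3 the difference was -1.28, -0.87 and -0.78. Every slide had a single array of at least 1 group, so such within-slide values each rest on very few arrays.

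Mrpl10 encodes the protein at the base of the stalk that recruits translation factors. Its log2 signal was 6.14, 5.91, 5.70 and 6.20 on the saline arrays and 4.92, 5.16, 5.28 and 5.12 on the colistin arrays. The colistin arrays lay together and below all saline arrays. Its log2 fold change was -0.87 ± 0.27 (adjusted p = 0.135; 0.0280 with normexp and 0.0323 with a variance that follows signal). A second probe gave -0.63 ± 0.78. Mrpl12, the protein that forms that stalk and is also known to bind the mitochondrial RNA polymerase, had log2 signals of 3.38, 2.63, 1.54 and 3.13 on saline and 2.66, 3.26, 2.77 and 2.63 on colistin arrays. Its groups overlapped, and its log2 fold change was 0.16 ± 0.44 (adjusted p = 0.849), a sign that turned when saline array 3 was left out.

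Mrpl17, a protein near the exit of the tunnel for the new chain, had log2 signals of 4.16, 3.66, 3.70 and 3.94 on saline and 3.53, 3.4, 3.48 and 3.35 on colistin arrays. The gap between the groups was narrow, and the log2 fold change was -0.42 ± 0.27 (adjusted p = 0.358). Its second probe had the opposite sign, 0.46 ± 0.75. Other large negative estimates came from members whose groups overlapped. They were Mrps5 (-1.68 ± 1.65), Mrps14 (-1.01 ± 1.25), Mrpl42 (-1.01 ± 0.59), Mrpl48 (-0.80 ± 0.36), Mrps17 (-0.74 ± 0.45) and Mrpl20 (-0.65 ± 0.46), with adjusted p from 0.230 for Mrpl48 to 0.643 for Mrps14. Mrps5, the counterpart of a bacterial protein of the messenger RNA channel, ranged from -6.24 to 1.07 over the saline arrays and was well above background on 3 of them. Mrps14 was well above background on 3 arrays of each group.

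Among the members that lay higher, Mrps27, a protein of the small subunit with repeats of a kind that binds RNA, had the largest positive estimate of the 67. Its log2 signal was -5.02, -4.96, -4.58 and -4.34 on the saline arrays and -3.41, -4.32, -1.14 and -1.32 on the colistin arrays. Colistin arrays 3 and 4 were far above the other two, and colistin array 2 lay just above saline array 4. The log2 fold change was 2.18 ± 0.73 (adjusted p = 0.153). It exceeded background on 3 saline arrays and all 4 colistin arrays, and with normexp the estimate was 0.34 (adjusted p = 0.523). Within slides 1, 2 and 3 the difference was 0.36, 3.82 and 2.21.

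Mrps18b, 1 of 3 mammalian relatives of a single bacterial protein, had log2 signals of -2.41, -2.64, -2.62 and -5.19 on saline and -1.02, 0.23, -2.01 and -2.40 on colistin arrays. Colistin array 4 lay almost on saline array 1. Mrps18b was well above background on 3 saline arrays and all 4 colistin arrays. The log2 fold change was 1.92 ± 0.80 (adjusted p = 0.206). It was 1.26 without saline array 4 and 0.58 with normexp. Mrps18a and Mrps18c, the other two relatives, gave 1.05 ± 0.71 (adjusted p = 0.394) and 0.50 ± 0.38 (adjusted p = 0.437), and both overlapped between groups.

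Mrps21, a small protein of the platform of the small subunit, had log2 signals of 3.13, 2.80, 1.57 and 3.11 on saline and 3.97, 3.85, 3.68 and 3.37 on colistin arrays. All colistin values were above the highest saline value. This gave a log2 fold change of 1.06 ± 0.41 (adjusted p = 0.188; 0.0356 with normexp). A second probe had the same sign, at 1.89 ± 0.83.

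Mrpl41, which besides its place in the large subunit has been described as a partner of the survival protein BCL2, was the member with the tightest colistin values. Its log2 signal was 1.17, 2.71, 2.35 and 1.95 on saline arrays and 3.04, 2.94, 3.04 and 3.02 on colistin arrays. The colistin SD was 0.05 and the saline SD 0.66. The difference on the log2 scale was 0.96 ± 0.37 (adjusted p = 0.187; 0.0344 with normexp), and a second probe gave 0.99 ± 0.35.

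Mrpl50, a large subunit protein without a bacterial counterpart, had log2 signals of -1.12, -0.11, 0.26 and -0.52 on saline and 0.30, 0.77, 0.60 and 0.996 on colistin arrays. The lowest colistin array lay just above saline array 3. The log2 fold change was 1.04 ± 0.37 (adjusted p = 0.169; 0.0357 with normexp), while a second probe gave -0.03 ± 0.80. 

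Mrpl4, which lines the exit tunnel, had log2 signals of -4.63, -2.15, -2.47 and -2.28 on saline and -1.93, -2.11, -2.07 and -1.48 on colistin arrays. Saline array 1 stood far below, and the other arrays lay close together. The estimate was 0.98 ± 0.57 (adjusted p = 0.326), 0.40 without saline array 1 and 0.11 with normexp. Mrpl55 had 0.74, 1.27, 1.23 and 0.29 on saline and 1.53, 1.39, 2.29 and 1.72 on colistin arrays. Its difference was 0.85 ± 0.36 (adjusted p = 0.208). Mrpl36, the counterpart of a very small bacterial protein, had -0.28, 0.76, 0.51 and 0.50 on saline and 0.87, 0.84, 1.17 and 0.82 on colistin arrays. Only saline array 1 lay well below the rest, and the difference was 0.55 ± 0.32 (adjusted p = 0.325).

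**Figure D2:**
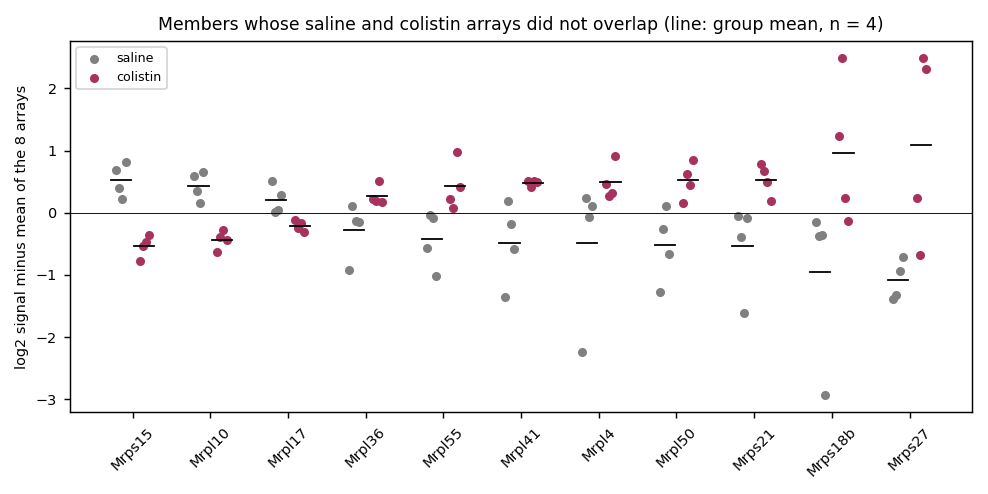
Log2 signal of each array minus the mean of the 8 arrays, for the 11 members whose saline (grey) and colistin (red) values did not overlap; lines are group means, n = 4 per group. Mrps15, Mrpl10 and Mrpl17 lie lower after colistin and the other 8 higher, and the colistin points of Mrpl41 nearly coincide.

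Further large positive estimates overlapped between groups. Mrpl21, Mrpl32, Mrpl3, Mrpl49 and Mrpl57 gave 1.67 ± 1.18, 1.58 ± 0.81, 1.43 ± 0.62, 1.38 ± 0.95 and 1.27 ± 0.51, with adjusted p from 0.193 for Mrpl57 to 0.412 for Mrpl21. Without saline array 4, Mrpl21 gave 0.37, Mrpl32 gave 0.74 and Mrpl49 gave 0.44, and with normexp Mrpl49 gave -0.09. Mrpl21 and Mrpl49 were well above background on 3 saline arrays and all 4 colistin arrays. Mrpl32, whose maturation by a mitochondrial protease is known to be a step in ribosome assembly, stood at -3.09 on saline array 4, against -0.33 to 0.88 on the other saline arrays and 0.79 to 1.53 on colistin arrays. Mrpl3, the counterpart of a bacterial protein near the catalytic centre, spanned -4.32 to -1.43 on saline arrays and -2.16 to -1.11 on colistin arrays.

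Members with particular roles or known in human mitochondrial disease showed no call either. Mrps12, of the decoding centre, gave 0.19 ± 0.56 (adjusted p = 0.859), and its sign turned without saline array 4. Mrps7 of the head of the small subunit gave 0.33 ± 0.49 (adjusted p = 0.701), Mrps16 gave -0.39 ± 0.42 (adjusted p = 0.594) and Mrps22 gave 0.94 ± 0.79 (adjusted p = 0.486). In the large subunit, Mrpl44, which has a fold related to ribonuclease III, gave 0.52 ± 0.38 (adjusted p = 0.432), and Mrpl45, which faces the inner membrane at the tunnel exit, gave 0.51 ± 0.61 (adjusted p = 0.640). Mrps30 carries a small subunit name but sits in the large subunit, as does Mrps18a. It gave 0.93 ± 0.59 (adjusted p = 0.365).

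Large and small subunit genes were then set against each other. Large subunit genes had a median log2 fold change of 0.38, with 25 of 42 positive, and small subunit genes of 0.16, with 14 of 25 positive. Both medians were above the -0.14 of all genes, and 16.7% and 16% of these genes had groups that did not overlap, where 18.6% of all genes did. The difference between the medians was 0.21. On colistin arrays 1 to 4, relative to the saline means, the large subunit medians were 0.33, 0.43, 0.38 and 0.34 and the small subunit medians 0.37, 0.24, 0.40 and 0.12. Large minus small was therefore -0.04, 0.19, -0.01 and 0.22, so the subunits took no steady order over the colistin arrays.

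The difference between the medians moved with single arrays. Without saline array 1 the large subunit median was 0.34 and the small subunit median -0.13, a difference of 0.48. Without saline array 4 they were 0.37 and 0.38. Without both of these arrays they were 0.32 and 0.15, a difference of 0.17. Without colistin array 2 they were 0.16 and 0.02. Counted by structure, with Mrps30 and Mrps18a in the large subunit, the medians were 0.49 for 44 genes and 0.12 for 23. Within slides 1, 2 and 3 the large subunit medians were 0.25, 0.40 and 0.20, and the small subunit medians 0.18, 0.30 and 0.0034. With slide as a block they were 0.40 and 0.21.

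By descent as assigned here, 39 members with a bacterial counterpart had a median log2 fold change of 0.16, with 21 positive. The 28 without a counterpart had 0.37, with 18 positive. Within the large subunit the medians were 0.22 over 24 genes and 0.51 over 18. Within the small subunit they were -0.03 over 15 genes and 0.17 over 10. Groups did not overlap for 17.9% of members with a bacterial counterpart and 14.3% of those without, where 18.6% of all genes had such groups. All 3 members that lay lower without overlap were assigned a bacterial counterpart, and of the 8 that lay higher 4 were. Mrpl55, among those 8, was counted as without one. That placing is uncertain, and the other choice would change these counts and medians. These are counts and medians with no test.

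**Figure D3:**
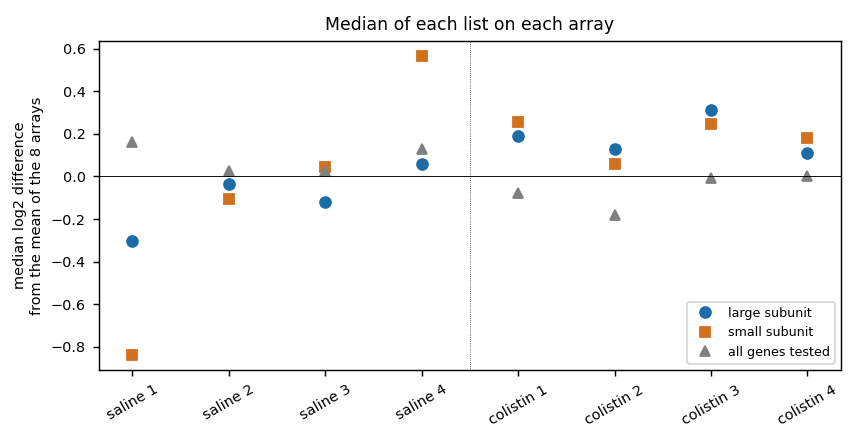
Median over the large subunit genes, the small subunit genes and all genes tested of the log2 difference from each gene's mean over the 8 arrays, for each array. The small subunit median is -0.84 on saline array 1 and 0.57 on saline array 4, while on colistin arrays both subunits lie between 0.06 and 0.31.

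The members differed more between saline arrays than between colistin arrays. The median SD of a member was 0.99 over the saline arrays and 0.45 over the colistin arrays, and for 54 of 67 members the saline SD was the larger. Over all genes tested these medians were 0.84 and 0.59, and 67.2% had the larger SD in saline. With normexp the members' medians were 0.63 and 0.36 and 48 of 67 had the larger SD in saline, against 60.5% of all genes. Whether the members differ from other genes in this was not tested, and the saline arrays were also the dimmer ones.

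Saline arrays 1 and 4 held most of this spread. Saline array 1 was the lowest of the 8 arrays for 23 of 67 members and the highest for 6. Over all 12411 genes it was the lowest for 1699 and the highest for 2455. Saline array 4 was the highest for 24 and the lowest for 14, so it was an extreme for 56.7% of members, against 41.0% of all genes. The median absolute difference between saline arrays 1 and 4 was 1.70 over the members and 0.93 over all genes. Between saline arrays 2 and 3 it was 0.56, and between pairs of colistin arrays it ran from 0.35 to 0.63. Saline arrays 1 and 4 lay on the same slide. Mrpl2 had log2 signals of -1.08, 1.44, 1.39 and 3.51 on saline and 2.19, 1.81, 1.98 and 2.15 on colistin arrays, with low saline array 1 and high saline array 4. Mrps7 had 1.97, 1.98, 2.80 and 4.05 on saline and 2.93, 2.92, 3.13 and 3.15 on colistin arrays.

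**Figure D4:**
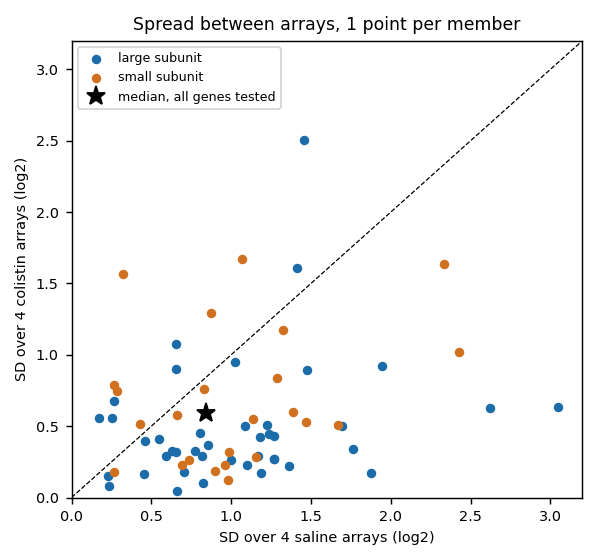
SD of log2 signal over the 4 colistin arrays against SD over the 4 saline arrays, 1 point per member; the dashed line marks equal SD and the star the median of all genes tested (0.84, 0.59). Of 67 points 54 lie below the line.

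Other genes of mitochondrial translation were read from lists made without regard to how each gene moved, though with earlier results of these data known. A list of genes outside the Mrp symbols that encode mitochondrial ribosomal proteins, or were once named as such, held 6 genes (Dap3, Ptcd3, Aurkaip1, Chchd1, Gadd45gip1 and Kgd4). Kgd4 was once named Mrps36, and its place in the ribosome was not examined here. Of the 6 genes 0 were called, 5 were positive and the median log2 fold change was 0.34. The 1 negative gene was Kgd4, at -0.42 ± 0.46 (adjusted p = 0.594). Among 21 genes of ribosome assembly and RNA modification, 13 were positive and the median was 0.61. The only gene of this list past the threshold was Rpusd4, a pseudouridine synthase of mitochondrial RNA, which stood out from background on 0 of the 4 saline arrays and so entered the fit through the colistin arrays alone. With its saline values raised to the lowest signal well above background on each array, the colistin mean was 3.43-fold higher. That level came from other probes, so the fold is not a sure minimum for Rpusd4. Its call (adjusted p = 0.0237) carries no weight, since a gene kept in that way had to differ. With normexp its estimate was -0.27 (adjusted p = 0.194). Mrm3, a methyltransferase of ribosomal RNA, exceeded background on 1 saline array and likewise entered through colistin. It gave 3.32 in the fit (adjusted p = 0.0995) and 0.28 with normexp (adjusted p = 0.618). Mterf3, a factor of assembly and transcription measured on all 8 arrays, gave -2.34 ± 0.83 (adjusted p = 0.166).

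Among 17 mitochondrial translation factors, 1 was called higher and 0 lower, where 1.46% of all genes were called higher and 0.540% lower. Of the 17, 13 were positive, with a median of 0.35. The gene called higher was Mtfmt, the enzyme that formylates the initiator methionine. Its log2 signals were -4.35, -3.80, -4.81 and -4.25 on saline and -0.75, -1.73, -0.97 and -2.48 on colistin arrays. All colistin values were above all saline values. It rose by 2.82 ± 0.45 (adjusted p = 0.0238). The adjusted p was 0.0544 and 0.0533 without saline array 1 or 3, and 0.0650, 0.0614 and 0.0741 without colistin array 1, 2 or 3. It was 0.0863 with slide as a block and 0.0770 with normexp, where the estimate was 0.69. Mrrf, the ribosome recycling factor, gave -2.56 ± 1.05 (adjusted p = 0.201), with colistin array 1 at 1.38 and the other colistin arrays from -4.01 to -1.25. Of 13 mitochondrial aminoacyl-tRNA synthetases 0 were called, with a median of -0.03 and Tars2 the highest at 1.80 ± 0.47 (adjusted p = 0.0977, and 0.0321 with normexp). Nars2 was the lowest at -1.50 ± 0.74 (adjusted p = 0.263). Of 15 genes for mitochondrial DNA upkeep and transcription 0 were called, with a median of 0.51, and 10 positive. Twnk, the mitochondrial helicase, was the lowest at -0.78 ± 0.26 (adjusted p = 0.155, but 0.0321 with normexp and 0.0221 with a variance that follows signal). Pprc1, a coactivator of the PGC family, had the highest fitted value at 2.36 (adjusted p = 0.110). It exceeded background on 1 saline array and entered through colistin, and with normexp its estimate was -0.04.

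The proteins of the cytosolic ribosome and the nuclear-encoded subunits of oxidative phosphorylation gave narrower distributions. Of 76 cytosolic ribosomal protein genes 71 were positive and 0 were called, with a median log2 fold change of 0.49. Of the 76, 29 did not overlap between groups, all of them higher, where 6.89% of all genes were. With normexp 33 of the 76 were called higher and 1 lower, where 5.51% of all genes were called higher and 21.8% lower. With a variance that follows signal 6 were called higher and 0 lower, where 1.79% of all genes were called higher and 1.18% lower. Rpl17 was the highest at 1.32 ± 0.32 (adjusted p = 0.0843) and Rpl3l the lowest at -0.59 ± 0.36 (adjusted p = 0.354). Of 68 oxidative phosphorylation subunits 22 were positive and 0 were called, with a median of -0.16. With normexp 1 of the 68 was called higher and 1 lower, beside the same 5.51% and 21.8% of all genes. They ran from Uqcrq at -1.09 ± 0.32 (adjusted p = 0.123) to Ndufs4 at 0.70 ± 0.38 (adjusted p = 0.302). Many cytosolic ribosomal protein genes have near-identical copies, so the targets of their probes are uncertain. The median saline SD was 0.36 for the cytosolic ribosomal genes and 0.38 for the oxidative phosphorylation subunits, against 0.99 for the mitochondrial ribosomal genes. No difference between these lists was tested.

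**Figure D5:**
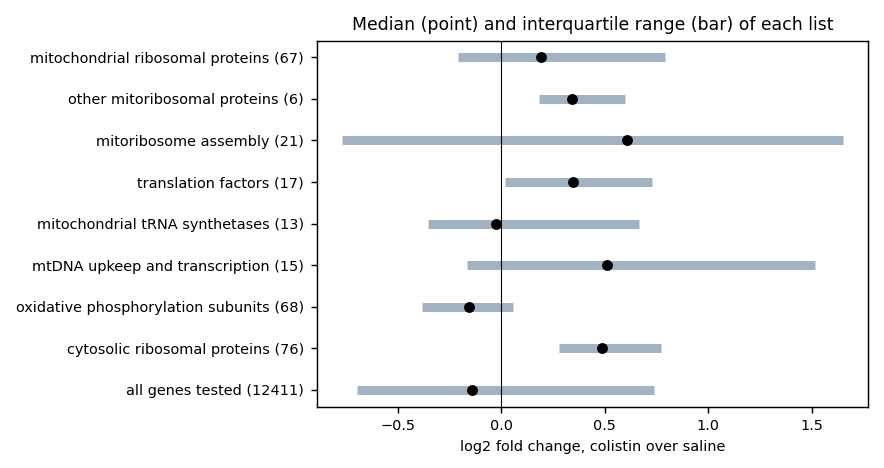
Median (point) and middle 50% (bar) of the log2 fold change of colistin over saline for the mitochondrial ribosomal protein genes, related lists and all genes tested, with the number of genes in parentheses. The mitochondrial ribosomal median (0.19) lies between the cytosolic ribosomal (0.49) and oxidative phosphorylation (-0.16) medians.

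A probe's signal depends on its sequence as well as on its transcript, so the members were also read by brightness. When all genes were cut into 3 equal parts by mean signal, 50 of the 67 members fell in the bright part, 10 in the middle and 7 in the dim part. Their median log2 fold changes were 0.18, 0.33 and 0.66, where all genes of the same parts had 0.04, -0.10 and -0.35. In the bright part 28 of 50 were positive, in the middle 7 of 10 and in the dim part 4 of 7. Groups did not overlap for 16% of the bright members, where 23.0% of all bright genes had such groups. These shares were 20% and 17.0% in the middle part, and 14.3% and 15.8% in the dim part.

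For 11 members 2 probes were measured, and both had the same sign for 7 of them. The signs differed for Mrpl17, Mrpl35, Mrpl40 and Mrpl50. In a fit over all kept probes, 0 of the 78 member probes passed.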

How the data were processed

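Each array's scanner table, as deposited, held 1-colour spot intensities. The submitters' processing notes name Agilent Feature Extraction, version 10.5. Its processed intensity is corrected for background, per the file headers, and arrays were not scaled to each other. Flags (well above background, saturated, outlying spot) were used as deposited. The authors' series table held log2 values with unstated scaling. Between pairs of arrays its differences correlated with the scanner's at 0.99977 or above across probes, and every probe's median over the 8 arrays was 0. Column medians were 0.232, 0.0227, 0.0862 and 0.195 (saline), then -0.113, -0.229, -0.0885 and -0.0324 (colistin).

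Of 42877 non-control spots per array, 257 to 461 were left out as outliers and 0 were saturated. Spots of a probe were averaged and log2 signal was taken minus the array's 75th percentile. A probe was kept if 3 or more arrays in saline or in colistin had it well above background (23718 of 30367), and 18643 probes were named by RefSeq accession through a table of GRCr8. The brightest kept probe stood for a gene. Limma 3.58.1 under R 4.3.3 compared the groups (lmFit, eBayes, two-sided, Benjamini-Hochberg over 12411 genes), and the code was tested on simulated data. The fold for Rpusd4 sets its colistin values against saline values raised to at least the lowest signal well above background on each array. Named members were those called, the 8 largest estimates in each direction, up to 5 per direction without overlap, and 12 set in advance; Mrpl2, Mrpl14, Mrpl34, Mrpl36, Mrpl55 and Mrps18c were chosen after their values were seen. Members and lists were chosen with earlier results of these data known. The arrays lay on 3 slides, each scanned together and holding both groups. The number of arrays limits precision. Alternatives were other backgrounds, scalings, filters, probes, blocks and left-out arrays.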

Additional observations from a re-analysis of the deposited data

Results flagged for a closer look

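The 4 saline and the 4 colistin values of each named member (58 groups), and of the medians over all members, the large and the small subunit (6 groups), were examined for an array far from the others. Chance flags about 1 in 20 groups, and 4 of the 64 held such an array. Mrpl21 was at -5.70 on its lowest saline array, with the others from -0.89 to -0.08. Mrps18b was at -5.19 on its lowest saline array, against -2.64 to -2.41 on the others. Mrpl4 was at -4.63 on its lowest saline array, against -2.47 to -2.15. Mrpl32 was at 1.53 on its highest colistin array, against 0.79 to 0.90. All are log2 signals relative to the array's 75th percentile. For Mrpl21 and Mrps18b that array was saline array 4, and for Mrpl4 it was saline array 1.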

How the results depend on the processing

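The count of members called was 0 higher and 0 lower in the main setting and under all alternatives run, save for normexp (3 higher, Mrpl41, Mrpl50 and Mrps21; 2 lower, Mrpl10 and Mrps15) and the intensity trend (0 higher; 2 lower, Mrpl10 and Mrps15). Normexp used spot medians because the tables hold no spot means, a setting chosen after seeing the data; it called 3390 genes, 20.2% of them higher, against 248 (181 higher, 67 lower), and moved the median of all genes to -0.34. The large subunit median was 0.14 with normexp, 0.26 with only probes that passed background on all 8 arrays, 0.32 without saline arrays 1 and 4 and 0.49 by structure. With 1 array left out it ran from 0.16 to 0.45, the small subunit median from -0.13 to 0.38, and large minus small from -0.0062 to 0.48. Large minus small was 0.0425 with normexp and 0.37 by structure. Quantile normalization, centring, other filters, averaged probes and the deposited table left both counts at 0. Of 29 named members 5 (Mrpl12, Mrpl17, Mrpl49, Mrps12 and Mrps14) turned sign in 1 alternative each, and leaving out 1 array moved the estimates of 19 by over 1.5 times, 13 of them without saline array 4. The cause of these differences was not tested.

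Deviations of same-numbered arrays from their group means correlated at -0.0205 to 0.0134 across genes. Only for replicate 3 was the same-numbered colistin array the highest match. Such correlations cannot show whether the samples were paired. With the replicate block 0 members were called higher and 0 lower, 5 genes were called in all, and the medians were 0.38 and 0.16, a difference of 0.21. With slide as a fixed block 40 genes were called. With normexp the assembly list had 1 of 21 genes higher (Dhx30) and 2 lower (Mrm1 and Tfb1m). The translation factors had 1 of 17 higher (Slirp). Neither Rpusd4 nor Mtfmt was called. Of all genes, normexp called 5.51% higher and 21.8% lower.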
